A study of Mus musculus with 10 samples.

Results

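The Rhox genes are homeobox genes of the X chromosome, and 8 of them were described here in mouse embryonic stem cells that lacked a subunit of a Polycomb complex. The 8 were Rhox1, Rhox5, Rhox6, Rhox9, Rhox10, Rhox11, Rhox12 and Rhox13, of 30460 genes in the expression tables and 42 genes with a Rhox symbol in the GENCODE M21 annotation. They were chosen by name from a list drawn up with earlier results of these data known, so their levels against wild type are given as a description with no test. The comparisons of the knockouts with each other were tested, although the list was drawn up with those levels in view as well. The low value filter, at least 0.5 FPKM in at least 2 libraries, was passed by 6 of the 8. Of these, Rhox10 and Rhox13 passed only through the knockout libraries. Rhox11 and Rhox12 did not pass, with 2 and 5 reads in the 10 libraries together.

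RNA was sequenced from embryonic stem cells of the C57BL/6 strain, cultured pluripotent cells of the embryo. There were 3 libraries labelled Mga-/-, 2 labelled L3mbtl2-/-, 2 labelled Pcgf6-/- and 3 labelled wild type. The sources used here do not give the deleted exons, the number of clones or whether replicates were separate cultures, so a p-value speaks for the scatter of these particular libraries, which could be technical only. The deposited level is FPKM, reads per kilobase of gene scaled to the size of the library, and depth was 19370092 to 26726692 reads.

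Rhox genes lie in 1 cluster and encode transcription factors best known from testis, ovary and placenta. The cluster is divided into an alpha group (Rhox1 to Rhox4), a beta group (Rhox5 to Rhox9) and a gamma group (Rhox10 to Rhox13), and in mouse Rhox2, Rhox3 and Rhox4 have been duplicated many times. Its genes are known to be silenced by DNA methylation in embryonic cells. MGA, L3MBTL2 and PCGF6 are subunits of PRC1.6, a Polycomb complex known for repressing germline genes. In it MGA pairs with MAX on E-box sequences and has a T-box domain of its own, E2F6 binds E2F sites, L3MBTL2 carries MBT domains, and PCGF6 holds the RING1 and RNF2 ubiquitin ligases.

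The RefSeq promoter table (GRCm38.p6) held windows from 250 bases before to 50 bases after the start for 6 of the 8 genes, and none for Rhox6 and Rhox9. The 250 bases before the start are shown for the 2 genes that were higher in every knockout library (Rhox13 and Rhox10), for Rhox5, the most abundant member in wild type cells, and for Rhox1, whose window had no CpG. CpG dinucleotides, the sites of DNA methylation, are in capitals, and each sequence is written 5′ to 3′ on the strand of its gene. The coordinates are chrX:38120590-38120839 (plus strand) for Rhox13, chrX:38066225-38066474 (plus) for Rhox10, chrX:37754358-37754607 (plus) for Rhox5 and chrX:37222259-37222508 (minus) for Rhox1.
Rhox13: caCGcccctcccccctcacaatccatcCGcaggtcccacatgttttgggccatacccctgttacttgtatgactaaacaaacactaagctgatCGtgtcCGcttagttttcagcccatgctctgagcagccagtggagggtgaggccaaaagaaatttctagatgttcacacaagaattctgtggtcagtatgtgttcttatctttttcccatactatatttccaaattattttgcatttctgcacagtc
Rhox10: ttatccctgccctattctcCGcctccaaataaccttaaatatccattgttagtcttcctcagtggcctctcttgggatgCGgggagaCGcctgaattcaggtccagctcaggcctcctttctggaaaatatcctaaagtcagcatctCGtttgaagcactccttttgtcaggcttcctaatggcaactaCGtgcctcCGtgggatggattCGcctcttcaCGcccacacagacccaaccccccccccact
Rhox5: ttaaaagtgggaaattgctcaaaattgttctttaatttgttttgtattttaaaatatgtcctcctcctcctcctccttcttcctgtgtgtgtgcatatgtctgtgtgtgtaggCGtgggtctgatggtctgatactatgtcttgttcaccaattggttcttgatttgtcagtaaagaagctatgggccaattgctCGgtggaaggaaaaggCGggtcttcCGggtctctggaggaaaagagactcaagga
Rhox1: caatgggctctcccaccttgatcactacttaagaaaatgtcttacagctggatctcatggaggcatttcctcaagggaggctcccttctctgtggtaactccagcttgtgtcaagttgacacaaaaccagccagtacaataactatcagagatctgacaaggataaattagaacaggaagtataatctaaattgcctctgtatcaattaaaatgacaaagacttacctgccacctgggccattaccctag
Over the whole windows, CpG counts were 9 for Rhox10, 7 for Rhox11, 5 for Rhox5, 5 for Rhox13, 3 for Rhox12 and 0 for Rhox1, and the median of all 32851 windows was 7. Only 5.43% of all windows had as few CpG as Rhox1. The RefSeq start of Rhox5 lay 50234 bases before the start of the gene in GENCODE M21, and that of Rhox13 lay 379 bases before it. For Rhox1, Rhox10 and Rhox12 both annotations gave the same start.

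Motifs known for PRC1.6 subunits were searched on both strands of these windows. The E-box CACGTG was in 7.15% of all windows, the E2F core TCCCGC in 20% and the T-box sequence AGGTGTGA in 1.28%. None of the 6 members' windows held any of the 3 runs of letters. Among the 7 windows of Rhox4 copies, which are not members, 5 held CACGTG, between 193 and 229 bases before the start. The site of Rhox4e (chrX:37557204-37557233, plus strand) is shown with its E-box in capitals, since it is the setting in which the motif occurred in the cluster.
Rhox4e: gaggtgggtcgcCACGTGtgcatccatacc
A match or its absence in a window of this length is a description of letters and says nothing of binding.

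The targeted genes were read first as a check of the labels. Mga had 8.03, 19.6 and 11.2 FPKM in the libraries labelled Mga-/-, against 18.5 ± 1.3 FPKM in wild type (SD, n = 3). The library labelled Mga-/- replicate 2 therefore held a wild type level of Mga, and it had the lowest level of its group at every tested Rhox member. The log2 differences of the members that involve the libraries labelled Mga-/- are given with and without it. L3mbtl2 had 3.6 ± 0.162 FPKM in L3mbtl2-/- cells (SD, n = 2) and 20.2 ± 0.382 FPKM in wild type cells (SD, n = 3). Pcgf6 had 9.69 ± 0.182 FPKM in Pcgf6-/- cells (SD, n = 2) and 28.9 ± 1.13 FPKM in wild type cells (SD, n = 3). Deletions can leave reads from the rest of a gene, so these levels are no measure of protein. The spread within groups was uneven: the median SD over genes on the log2(FPKM + 0.1) scale was 0.338 in Mga-/-, 0.064 in L3mbtl2-/-, 0.067 in Pcgf6-/- and 0.086 in wild type.

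The gamma gene Rhox13, a homeobox gene known from germ cells, had the largest difference from wild type among the members in each knockout. Its level was 69.7, 13.3 and 159 FPKM in the libraries labelled Mga-/-, against 0.239, 0.299 and 0.386 FPKM in wild type. It was 111 and 110.1 FPKM in L3mbtl2-/- cells. In Pcgf6-/- cells it was 45.5 and 43.7 FPKM. All 7 knockout libraries lay above all wild type libraries, with no overlap, and the library labelled Mga-/- replicate 2 was the lowest of the 7, at 43.2 times the wild type mean. The wild type values rest on 5, 7 and 9 reads. The ratio of read rates was 259 in Mga-/- over wild type (exact 95% interval 169 to 418, counting error only), 355 in L3mbtl2-/- (232 to 575) and 144 in Pcgf6-/- (93.8 to 233). On the log2(FPKM + 0.1) scale, which understates changes of low genes, the differences were 7.04 ± 0.72, 8.10 ± 0.81 and 6.79 ± 0.81 (limma standard error). Without the library labelled Mga-/- replicate 2 the Mga-/- difference was 8.03. The gene (ENSMUSG00000050197) lies at chrX:38121219-38129967 on the plus strand in GRCm38.

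The neighbouring gamma gene Rhox10, known from spermatogonia, was near the floor in wild type cells and present in every knockout library. It had 4.02, 0.65 and 5.07 FPKM in the libraries labelled Mga-/-, against 0.11, 0 and 0.0985 FPKM in wild type. It had 3.81 and 2.96 FPKM in L3mbtl2-/- cells. Pcgf6-/- cells had 6.71 and 6.29 FPKM, the highest of the 10 libraries. The wild type libraries held 2, 0 and 2 reads, and the knockout libraries held 12 to 119 reads each, so the groups did not overlap. Ratios of read rates over wild type were 47.9 in Mga-/- (18.4 to 178), 49.9 in L3mbtl2-/- (19 to 186) and 96.1 in Pcgf6-/- (37 to 356). The log2 differences were 3.97 ± 0.66, 4.43 ± 0.74 and 5.36 ± 0.74, and without the library labelled Mga-/- replicate 2 the Mga-/- difference was 4.84. Because the wild type levels were at or near the pseudocount of 0.1 or below it, the fitted difference depended on the pseudocount and was 2.81 in Pcgf6-/- with a pseudocount of 1. Rhox10 (ENSMUSG00000053909, chrX:38066475-38071691, plus strand) had the most CpG of the 6 promoter windows and Rhox13 had fewer than the median window.

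The other gamma genes did not share this. Rhox11 (ENSMUSG00000051038) had 2 reads in Mga-/- replicate 1 and was listed at 0 in the other 9 libraries. Rhox12 (ENSMUSG00000071766) had 3 reads in Mga-/- replicate 1, 1 read in Mga-/- replicate 3 and 1 read in wild type replicate 1. Both genes lie between Rhox10 and Rhox13, at chrX:38076594-38085141 and chrX:38104077-38110907, on the minus strand, whereas Rhox10 and Rhox13 lie on the plus strand. At this depth no difference between groups was detectable for either of them. No annotated gene overlaps any of the 8 members, which matters because the library kit does not mark strand.

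**Figure D1:**
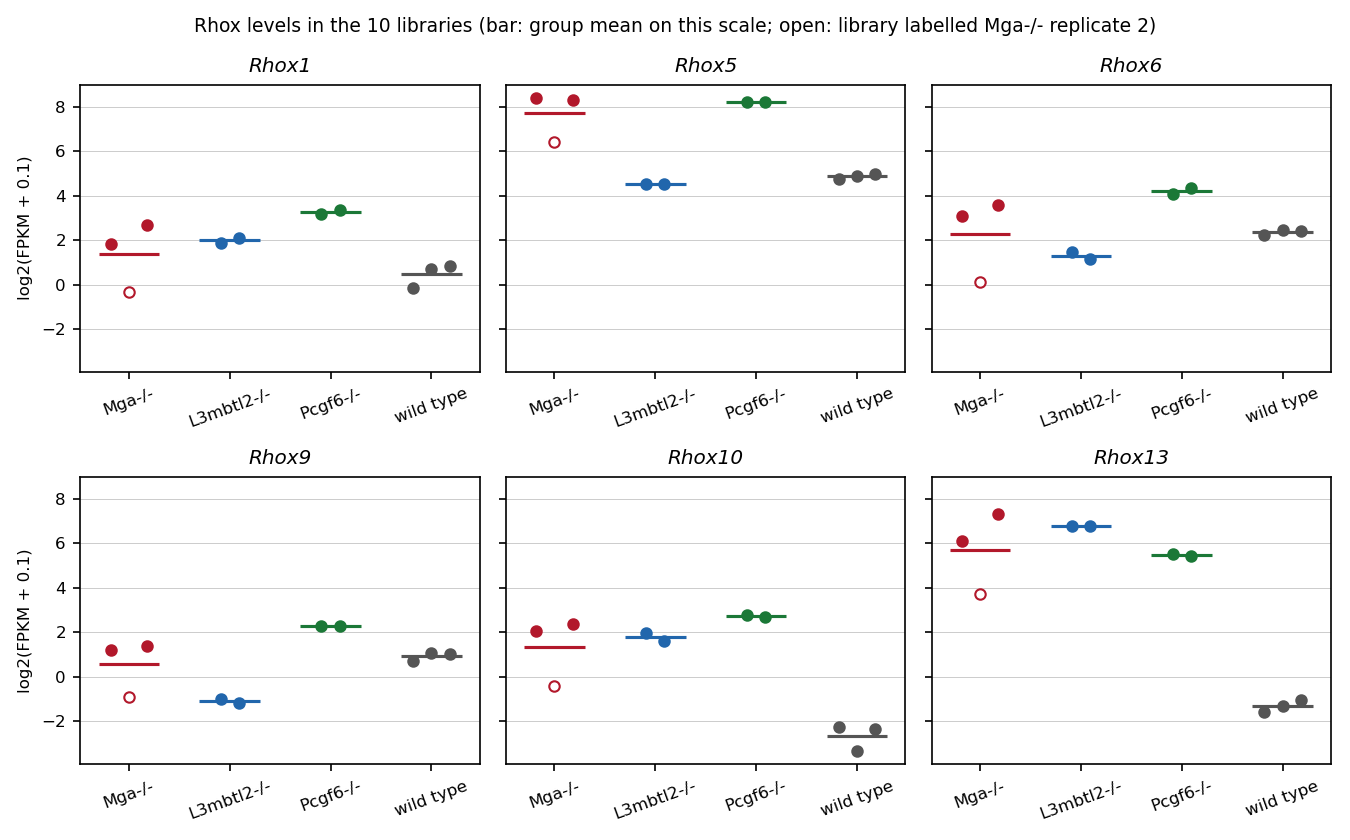
Level of the 6 members that passed the low value filter, as log2(FPKM + 0.1), in each of the 10 libraries by group; points are libraries, bars are group means on this scale and the open point is the library labelled Mga-/- replicate 2. Rhox10 and Rhox13 are above wild type in all 7 knockout libraries, whereas Rhox5, Rhox6 and Rhox9 are above wild type in both Pcgf6-/- libraries and below it in both L3mbtl2-/- libraries.

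Rhox5, also called Pem and the founding gene of the family, was already the most abundant member in wild type cells and differed between the knockouts. It had 340.5, 85.6 and 315 FPKM in the libraries labelled Mga-/-, against 27.2, 29.5 and 31.3 FPKM in wild type. Pcgf6-/- cells had 293 and 297 FPKM. L3mbtl2-/- cells had 22.9 and 23.1 FPKM, below all wild type libraries. The Mga-/- and Pcgf6-/- means were 8.42 and 10.1 times the wild type mean, and the library labelled Mga-/- replicate 2 lay at 2.92 times. The log2 differences from wild type were 2.83 ± 0.44 in Mga-/-, −0.35 ± 0.50 in L3mbtl2-/- and 3.33 ± 0.50 in Pcgf6-/-. Without that library the Mga-/- difference was 3.48. The gene (ENSMUSG00000095180) lies at chrX:37804842-37808876 on the plus strand.

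The 2 placental genes Rhox6 (Psx1) and Rhox9 (Psx2, also called Gpbox), both of the beta group, were highest in Pcgf6-/- and lowest in L3mbtl2-/- cells by group mean. Rhox6 had 8.3, 0.981 and 11.9 FPKM in the libraries labelled Mga-/-, against 4.56, 5.41 and 5.28 FPKM in wild type. It had 2.63 and 2.11 FPKM in L3mbtl2-/- cells, and 17 and 20.4 FPKM in Pcgf6-/- cells. The Pcgf6-/- libraries lay above all wild type libraries, the L3mbtl2-/- libraries lay below them, and the Mga-/- libraries lay on both sides. Rhox9 had 2.2, 0.432 and 2.56 FPKM in the libraries labelled Mga-/-, against 1.55, 1.99 and 1.96 FPKM in wild type. It had 0.406 and 0.349 FPKM in L3mbtl2-/- cells, and 4.78 and 4.77 FPKM in Pcgf6-/- cells. As for Rhox6, the Pcgf6-/- libraries were highest and the L3mbtl2-/- libraries lay below wild type, and the library labelled Mga-/- replicate 2 was close to the L3mbtl2-/- libraries at Rhox9 and below them at Rhox6.

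In Pcgf6-/- over wild type the log2 difference was 1.86 ± 0.83 for Rhox6 and 1.34 ± 0.59 for Rhox9. In L3mbtl2-/- it was −1.08 ± 0.83 and −2.01 ± 0.59. The Mga-/- difference was −0.11 ± 0.75 for Rhox6 and −0.37 ± 0.53 for Rhox9, and without the library labelled Mga-/- replicate 2 it turned to 0.96 and 0.37. For Rhox6 the sign depended on the scale as well: the mean was 7.06 FPKM in Mga-/- and 5.08 FPKM in wild type, and the log2 difference was 0.03 with a pseudocount of 1. No direction is therefore given for either gene in Mga-/- cells. Rhox6 (ENSMUSG00000006200) lies at chrX:37826910-37829857 on the plus strand and Rhox9 (ENSMUSG00000068048) at chrX:37899097-37901770 on the minus strand. Their transcripts share sequence: 159 of the 961 different 50-base runs of Rhox6 (16.5%) occur in Rhox9, and these are 6.28% of the runs of Rhox9. Reads from the shared stretch could have been counted for either gene, so the 2 are not fully separate measurements. The other 6 members shared no 50-base run with another gene.

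Rhox1, the only member of the alpha group, lay above wild type in most knockout libraries. It had 3.42, 0.702 and 6.41 FPKM in the libraries labelled Mga-/-, against 0.805, 1.53 and 1.7 FPKM in wild type. L3mbtl2-/- cells had 3.62 and 4.23 FPKM, and Pcgf6-/- cells had 8.92 and 10 FPKM. Of the 7 knockout libraries, 6 lay above all wild type libraries, and the library labelled Mga-/- replicate 2 lay below them. The log2 differences from wild type were 0.93 ± 0.66 in Mga-/-, 1.54 ± 0.73 in L3mbtl2-/- and 2.79 ± 0.73 in Pcgf6-/-, and the Mga-/- difference was 1.79 without that library. Rhox1 (ENSMUSG00000071773, chrX:37213804-37222258, minus strand) is the member whose promoter window held no CpG.

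Counted over the 6 tested members, every Pcgf6-/- library lay above every wild type library for all 6, a separation that 36.2% of all 15731 tested genes showed, and none lay below (29.2%). In L3mbtl2-/- cells 3 members lay above (Rhox1, Rhox10 and Rhox13; 46.7% of all tested genes did) and 3 lay below (Rhox5, Rhox6 and Rhox9; 32.8% of all tested genes did). In the libraries labelled Mga-/- 3 members lay above (Rhox5, Rhox10 and Rhox13; 28.3% of all tested genes did), none lay below (20.5%) and 3 overlapped with wild type. Without the library labelled Mga-/- replicate 2 all 6 lay above (39.8% of all tested genes did). By limma with Benjamini-Hochberg adjustment, 39.5% of all tested genes differed between Mga-/- and wild type, 40.0% between L3mbtl2-/- and wild type and 10.1% between Pcgf6-/- and wild type. The members were listed for such levels, so nothing is read from these counts. The 3 comparisons share the wild type libraries.

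The order of the members by FPKM differed between groups. In the libraries labelled Mga-/- Rhox5 (mean 247 FPKM) and Rhox13 (80.6 FPKM) were at the top and Rhox9 (1.73 FPKM) at the bottom. In L3mbtl2-/- cells Rhox13 (110.3 FPKM) was above Rhox5 (23 FPKM), and Rhox1 and Rhox10, next in order at 3.93 and 3.38 FPKM, overlapped. In Pcgf6-/- cells the order was Rhox5 (295 FPKM), Rhox13 (44.6 FPKM), Rhox6 (18.7 FPKM), Rhox1 (9.46 FPKM), Rhox10 (6.5 FPKM) and Rhox9 (4.77 FPKM), with no overlap between neighbours. In wild type cells Rhox5 (29.3 FPKM) came before Rhox6 (5.08 FPKM), and Rhox9 (1.83 FPKM) and Rhox1 (1.34 FPKM) overlapped. Rhox13 (0.308 FPKM) and Rhox10 (0.0694 FPKM) came last there.

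The knockouts were then set against each other, which was tested for the 6 members in the fit over all genes. More members passed between L3mbtl2-/- and Pcgf6-/- cells than in either other pair, 3 of 6, all lower in L3mbtl2-/-. They were Rhox5, Rhox6 and Rhox9, the 3 members of the beta group. Rhox6 and Rhox9 share sequence, so the 3 are not fully separate results. Over all tested genes 30.5% passed in this comparison and 13.9% were lower in L3mbtl2-/-. Rhox5 averaged 23 ± 0.132 FPKM in L3mbtl2-/- and 295 ± 2.7 FPKM in Pcgf6-/- cells (SD, n = 2 each), a log2 difference of −3.67 ± 0.54 (limma, adjusted p = 0.00219). Rhox9 averaged 0.378 ± 0.0405 FPKM in L3mbtl2-/- and 4.77 ± 0.0019 FPKM in Pcgf6-/- cells, a log2 difference of −3.35 ± 0.65 (adjusted p = 0.00657). Both calls held under all 6 other settings of the fit. With 1 library left out the difference was −3.68 to −3.67 for Rhox5 and −3.44 to −3.27 for Rhox9. All these fits use the same libraries, and the list was drawn up with these levels in view. The p-values are therefore no independent support.

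Rhox6 averaged 2.37 ± 0.368 FPKM in L3mbtl2-/- and 18.7 ± 2.46 FPKM in Pcgf6-/- cells, a log2 difference of −2.93 ± 0.91 (adjusted p = 0.0406). That call was less steady: it was lost with no filter on low values (adjusted p = 0.0684) and without any single wild type, L3mbtl2-/- or Pcgf6-/- library (adjusted p = 0.0638 to 0.161); over all alternatives its adjusted p lay between 4.92e-05 and 0.161. The 3 members outside the beta group did not pass. The log2 difference was 1.30 ± 0.89 for Rhox13 (adjusted p = 0.292), −1.25 ± 0.80 for Rhox1 (adjusted p = 0.266) and −0.93 ± 0.81 for Rhox10 (adjusted p = 0.405). Without the library labelled Mga-/- replicate 2, which adds to the pooled spread, Rhox13 (adjusted p = 0.0157) and Rhox1 (adjusted p = 0.0273) passed as well, with the same differences. Over their alternatives the adjusted p ranged from 0.000251 to 0.493 for Rhox13 and from 0.00181 to 0.496 for Rhox1. In the fit without Mga-/- replicate 2, 4033 of the 15731 tested genes were called higher in L3mbtl2-/- and 3324 lower.

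Between the libraries labelled Mga-/- and L3mbtl2-/- cells, Rhox5 was the 1 of 6 members that passed, where 22.8% of all tested genes passed. Its level averaged 247 ± 140.3 FPKM in Mga-/- (SD, n = 3) and 23 ± 0.132 FPKM in L3mbtl2-/- cells (SD, n = 2), a log2 difference of 3.18 ± 0.50 (adjusted p = 0.00287). Leaving out the library labelled Mga-/- replicate 2 gave 3.83 (adjusted p = 4.9e-07). It missed the threshold when only these 2 groups were fitted (adjusted p = 0.0598), in a range of 4.9e-07 to 0.0598. Rhox9 and Rhox6 differed by 1.64 ± 0.59 (adjusted p = 0.0792) and 0.96 ± 0.83 (adjusted p = 0.443). Without the library labelled Mga-/- replicate 2 both passed, at 2.38 (adjusted p = 7.62e-05, range 7.62e-05 to 0.283) and 2.03 (adjusted p = 0.000291, range 0.000291 to 0.823). In that setting 2928 of the 15731 tested genes were called higher in Mga-/- and 2744 lower. Rhox1 (−0.60 ± 0.73), Rhox10 (−0.46 ± 0.74) and Rhox13 (−1.06 ± 0.81) did not pass. Without that library the differences of Rhox1 and Rhox10 turned to 0.25 and 0.42, and that of Rhox13 was −0.07 (adjusted p = 0.897).

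Between the libraries labelled Mga-/- and Pcgf6-/- cells none of the 6 members passed, where 22.6% of all tested genes passed. The largest differences, which missed the threshold, were those of Rhox1 (−1.85 ± 0.73, adjusted p = 0.0998), Rhox6 (−1.97 ± 0.83, adjusted p = 0.121) and Rhox9 (−1.72 ± 0.59, adjusted p = 0.0666). With limma-voom on the recovered reads Rhox1 (adjusted p = 0.0464) and Rhox9 (adjusted p = 0.03) passed. Without the library labelled Mga-/- replicate 2, 3 members passed: Rhox6 at −0.90 (adjusted p = 0.00784), Rhox9 at −0.98 (adjusted p = 0.00274) and Rhox13 at 1.24 (adjusted p = 0.0204). In that setting 3965 of the 15731 tested genes were called higher in Mga-/- and 3038 lower, so nothing is read from the 3. Adjusted p ranged from 0.0328 to 0.313 for Rhox1, 0.00784 to 0.356 for Rhox6, 0.00274 to 0.25 for Rhox9 and 0.0204 to 0.979 for Rhox13 over the alternatives. Without it the difference of Rhox1 was −0.99 (adjusted p = 0.0631). Rhox10 differed by −1.39 ± 0.74 (adjusted p = 0.202), and by −0.52 without that library. Rhox5 differed by −0.49 ± 0.50 (adjusted p = 0.496), and by 0.15 without it. A p that misses the threshold does not show that levels were alike.

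**Figure D2:**
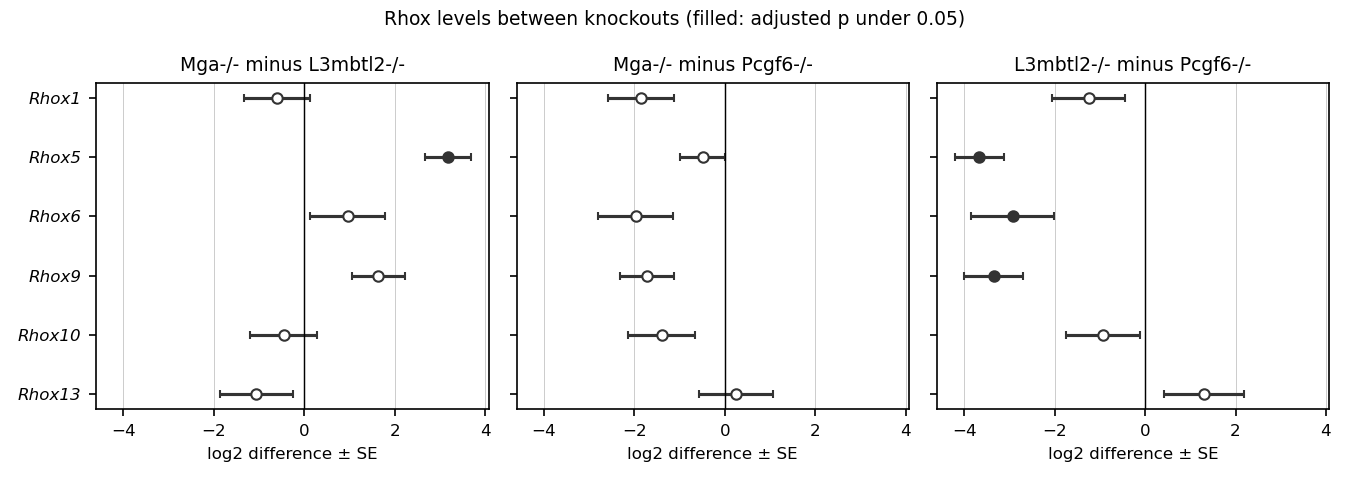
Log2 difference in level between pairs of knockouts for the 6 tested members, with the limma standard error; filled points passed an adjusted p of 0.05. The beta genes Rhox5, Rhox6 and Rhox9 pass between L3mbtl2-/- and Pcgf6-/-, at −3.67, −2.93 and −3.35, and Rhox5 passes between Mga-/- and L3mbtl2-/-, at 3.18.

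Likeness of level across the 10 libraries is described by Pearson's r of log2(FPKM + 0.1) with no test, since libraries of a group share their genotype. Rhox10 and Rhox13 had r = 0.95, and Rhox6 and Rhox9, which share sequence, had r = 0.94. Rhox9 and Rhox13 had r = −0.12, and Rhox6 and Rhox13 had r = 0.13. Rhox1 and Rhox5 lay between these pairs. Rhox1 had r = 0.83 to Rhox10, 0.71 to Rhox6, 0.70 to Rhox13 and 0.48 to Rhox9, and Rhox5 had r = 0.68 to Rhox6, 0.66 to Rhox9, 0.64 to Rhox10 and 0.51 to Rhox13. Over the 9 libraries without Mga-/- replicate 2, r was 0.96 for Rhox10 and Rhox13, 0.95 for Rhox6 and Rhox9, 0.90 for Rhox1 and Rhox10, and 0.88 for Rhox5 and Rhox6.

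Outside the family, the gene most like Rhox13 was Tdrkh (r = 0.994 over 10 libraries), which encodes a Tudor protein of the piRNA pathway. Tdrkh had 10.5 FPKM in Mga-/-, 10.2 FPKM in L3mbtl2-/-, 7.3 FPKM in Pcgf6-/- and 0.889 FPKM in wild type cells. The next were Gid8, Cox6c, Trp53rka and Ubl5, with r from 0.978 to 0.984. Those most like Rhox10 were Acat1, Ubl5, Gtf2a2, Tsc22d1 and Slc30a1 (r from 0.952 to 0.976). For Rhox5 they were Mepce, Praf2, Prr23a2, Gucy1b1 and Tmem266 (r from 0.965 to 0.976). Prr23a2 stood at 7.58 FPKM in Mga-/-, 0.218 FPKM in L3mbtl2-/-, 4.04 FPKM in Pcgf6-/- and 0.339 FPKM in wild type cells, and like Rhox5 it had its lowest means in L3mbtl2-/- and wild type cells. For Rhox6 they were Npepl1, Pramef12, Myh6, Fut4 and Fndc1 (r from 0.949 to 0.983), for Rhox9 Irf2bp1, Sbno2, Patj, Eif3d and G6pc3 (0.955 to 0.983), and for Rhox1 R3hcc1, Tbx20, Trp53inp2, Ppp6r1 and Gtf2h5 (0.947 to 0.964). Praf2 was the only X-linked gene among them, and many of these genes differed far less in level than the Rhox gene they followed.

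The other Rhox genes of the cluster had low listed levels. Of 34, 27 were in the tables, 7 passed the filter and Rhox4f had no counted read in any library. Many of these genes share sequence, and reads that match several copies may be missing from the counts. The 7 were Rhox2a, Rhox2b, Rhox2d, Rhox2f, Rhox2-ps, Rhox7-ps1 and Rhox7-ps2. None of them reached 0.5 FPKM in more than 1 wild type library, so all 7 passed only with the help of knockout libraries. Their differences from wild type were therefore bound to be positive in some knockout, and their levels are given with no test.

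Rhox2-ps, a pseudogene near Rhox5, had 2.38, 1.8 and 5.56 FPKM in the libraries labelled Mga-/-, against 0, 0.349 and 0.584 FPKM in wild type. It had 2.48 and 2.56 FPKM in L3mbtl2-/- cells, and 2.54 and 4.49 FPKM in Pcgf6-/- cells. Every knockout library, the library labelled Mga-/- replicate 2 included, lay above every wild type library. Its neighbour Rhox7-ps2 had 1.75, 2.44 and 7.88 FPKM in the libraries labelled Mga-/-, 2.62 and 2.16 FPKM in L3mbtl2-/-, 1.74 and 5.61 FPKM in Pcgf6-/- and 0.39, 0.116 and 0.584 FPKM in wild type cells, again with no overlap between knockout and wild type libraries. Of its 50-base runs 43.6% occur in another gene, so its reads may come from a copy. Rhox7-ps1, which lies beyond Rhox13, had 0.45, 0.205 and 2.48 FPKM in the libraries labelled Mga-/-, against 0.104, 0.0464 and 0 FPKM in wild type. It had 1.72 and 2.21 FPKM in L3mbtl2-/- cells, and 0.481 and 0.833 FPKM in Pcgf6-/- cells.

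Copies of Rhox2, Rhox4 and Rhox7 share sequence, with 44.7% (Rhox2d) to 100% (Rhox2e) of a copy's 50-base runs occurring in another gene, and reads were therefore summed over the copies. Summing does not restore reads that were left out because they match several copies, so low counts here need not mean low RNA. The 8 Rhox2 copies had 41, 5 and 37 reads in the libraries labelled Mga-/-, against 1, 2 and 0 reads in wild type. They had 87 and 97 reads in L3mbtl2-/- cells and 22 and 11 reads in Pcgf6-/- cells, so that the highest Rhox2 levels, 3.66 and 4.21 RPM (reads scaled to library size), were in L3mbtl2-/- cells. Among single copies Rhox2a, the most read, had 0.764, 0.196 and 0.493 FPKM in the libraries labelled Mga-/-, 1.75 and 2.47 FPKM in L3mbtl2-/-, 0.816 and 0.306 FPKM in Pcgf6-/- and 0.0496, 0.0887 and 0 FPKM in wild type cells. Rhox2b, Rhox2d and Rhox2f were listed at 0 in all wild type libraries, and in L3mbtl2-/- cells they had 13 and 13, 7 and 10, and 17 and 10 reads. Rhox2d was listed at 0 in both Pcgf6-/- libraries as well.

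The 8 Rhox4 copies, of which 5 held the E-box CACGTG in their windows, had another order. They had 13, 0 and 6 reads in the libraries labelled Mga-/-, against 9, 21 and 11 reads in wild type. They had 5 and 3 reads in L3mbtl2-/- cells and 25 and 36 reads in Pcgf6-/- cells. By the sum, the Pcgf6-/- libraries lay above all wild type libraries and the L3mbtl2-/- libraries below, as for Rhox6 and Rhox9. This was not a trait of every copy. Rhox4g alone held 17 and 19 of the Pcgf6-/- reads. Rhox4e held 4 and 13 of them and overlapped with wild type, where it had 5, 11 and 5 reads. None of the Rhox4 copies passed the filter, so the order of the groups was not tested. The 2 Rhox7 copies had 7, 3 and 26 reads in the libraries labelled Mga-/-, 13 and 16 in L3mbtl2-/-, 14 and 5 in Pcgf6-/- and 3, 0 and 3 in wild type.

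**Figure D3:**
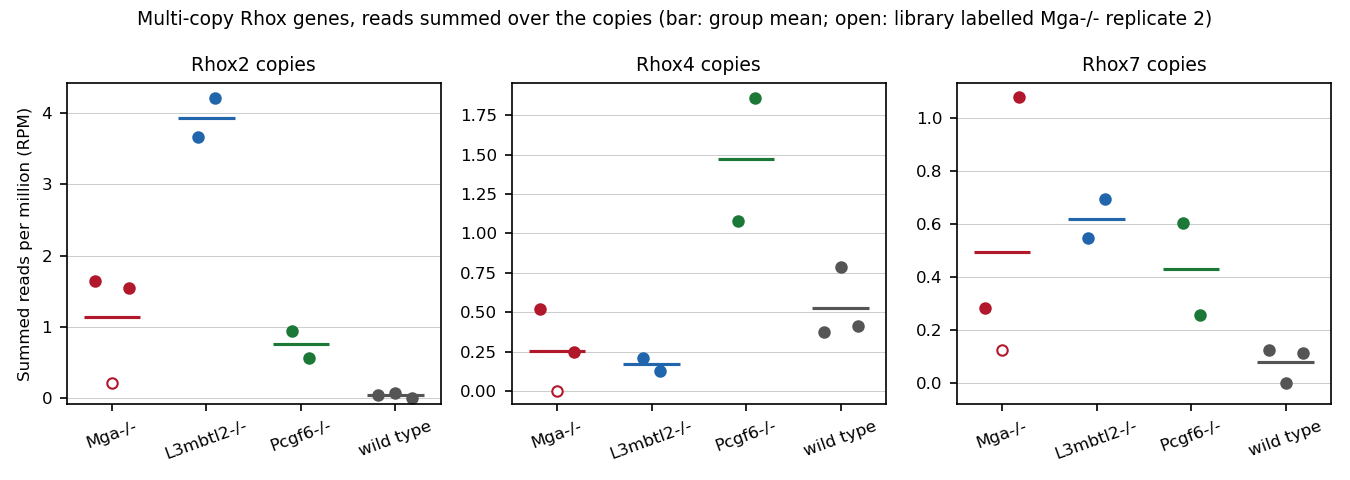
RPM, reads scaled to library size, summed over the listed copies of Rhox2, Rhox4 and Rhox7 in each library by group; points are libraries, bars are group means and the open point is the library labelled Mga-/- replicate 2. Rhox2 copies are highest in L3mbtl2-/- (3.66 and 4.21 RPM), and Rhox4 copies are highest in Pcgf6-/- (1.08 and 1.86 RPM).

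**Figure D4:**
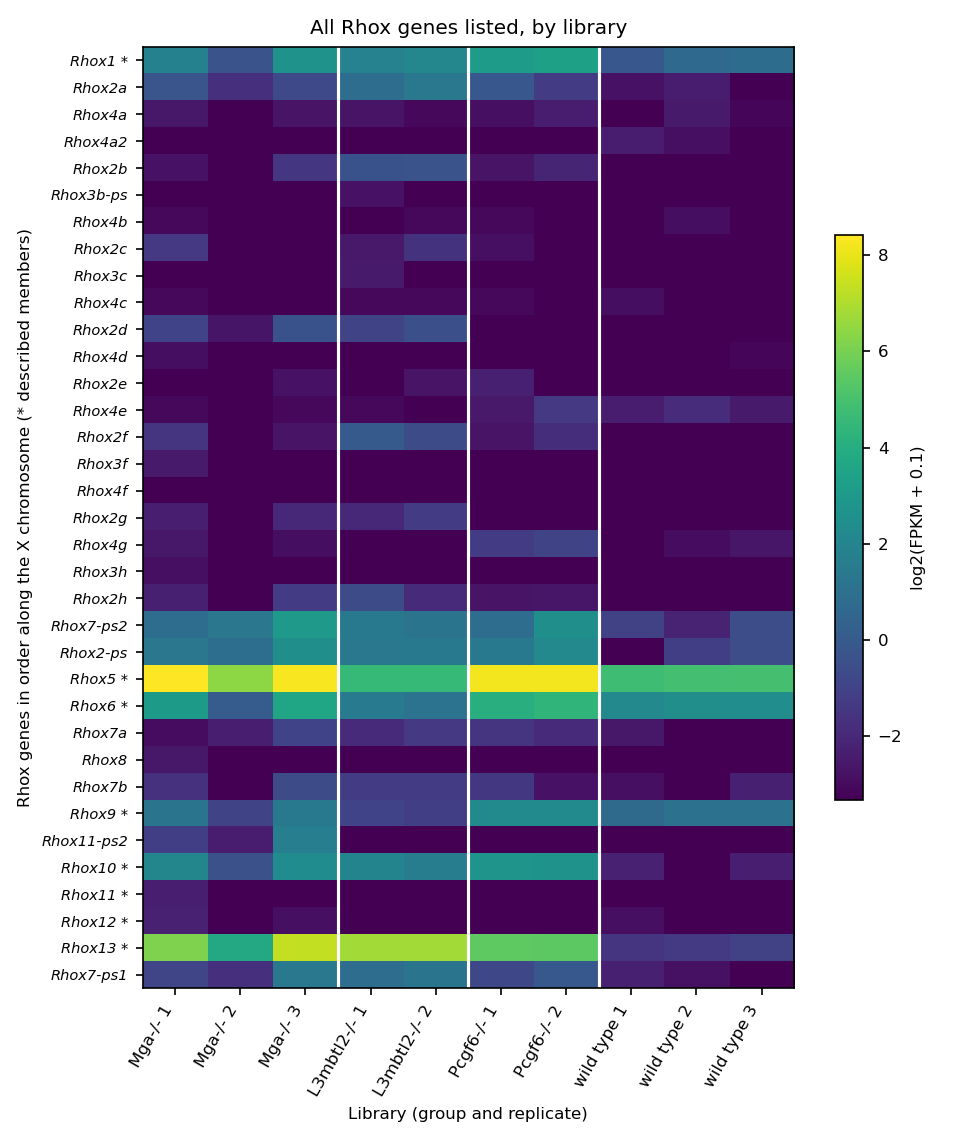
Level of every listed Rhox gene as log2(FPKM + 0.1), with genes in order along the X chromosome and libraries in columns; an asterisk marks the 8 described members. Rhox5 and Rhox13 are the brightest rows, Rhox13 is near the floor in the 3 wild type columns, and most Rhox3 and Rhox4 copies stay near the floor in all 10 libraries. Reads that match several copies may be missing from the levels of copies.

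Genes beside the cluster gave the background of the region. Of the 10 nearest protein-coding genes on each side, 17 were in the tables and 13 were tested. Against wild type, 4 were higher and 1 lower in Mga-/- (22.8% and 16.7% of all tested genes were), 3 higher and 1 lower in L3mbtl2-/- (23.4% and 16.7%), and 2 higher and 1 lower in Pcgf6-/- cells (5.45% and 4.62%). The 5 and 4 of 13 called in Mga-/- and L3mbtl2-/- are no more than the 39.5% and 40.0% of all tested genes. The 3 of 13 called in Pcgf6-/- cells, Gm9 among them, stand beside 10.1%. Their median log2 differences were 0.16, 0.13 and 0.13, against 0.10, 0.13 and 0.04 over all tested genes. Sept6, which encodes a septin, fell in all 3 knockouts, with differences of −2.45 ± 0.25, −1.98 ± 0.28 and −1.44 ± 0.28 (adjusted p = 0.000235, 0.00107 and 0.0163). Zbtb33, which encodes the methyl-CpG binding protein Kaiso, rose in all 3, by 0.65 ± 0.12, 0.71 ± 0.14 and 0.57 ± 0.14 (adjusted p = 0.00426, 0.00446 and 0.0355). Gm9, the neighbour next to Rhox1, had 6.36 ± 0.688 FPKM in Pcgf6-/- (SD, n = 2) and 0.33 ± 0.113 FPKM in wild type cells (SD, n = 3). The log2 difference was 3.94 ± 0.75. Gm9 passed the filter only through knockout libraries, so its difference is described with no p, and nothing is read from its place in the Pcgf6-/- count. The Mga-/- count was 3 without wild type replicate 2 or 3, and the L3mbtl2-/- count was 2 without either L3mbtl2-/- library. The Pcgf6-/- count was 0 or 1 without any single wild type or Pcgf6-/- library, and 5 without any single library labelled Mga-/-.

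Over 598 tested X-linked genes the median log2 difference from wild type was 0.17 in Mga-/-, 0.16 in L3mbtl2-/- and 0.05 in Pcgf6-/- cells, against 0.10, 0.13 and 0.04 over the other chromosomes. Of them 177 were higher and 86 lower in Mga-/-, 155 and 93 in L3mbtl2-/-, and 50 and 27 in Pcgf6-/- cells. Passing genes made up 44.0%, 41.5% and 12.9% of the X-linked genes tested, against 39.5%, 40.0% and 10.1% of all genes tested. Reads on Y-linked genes differed between groups, with 1773, 1756 and 800 in the libraries labelled Mga-/-, 4257 and 3979 in L3mbtl2-/-, 457 and 311 in Pcgf6-/- and 2501, 2770 and 2629 in wild type, and their relation to the Rhox levels was not tested.

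**Figure D5:**
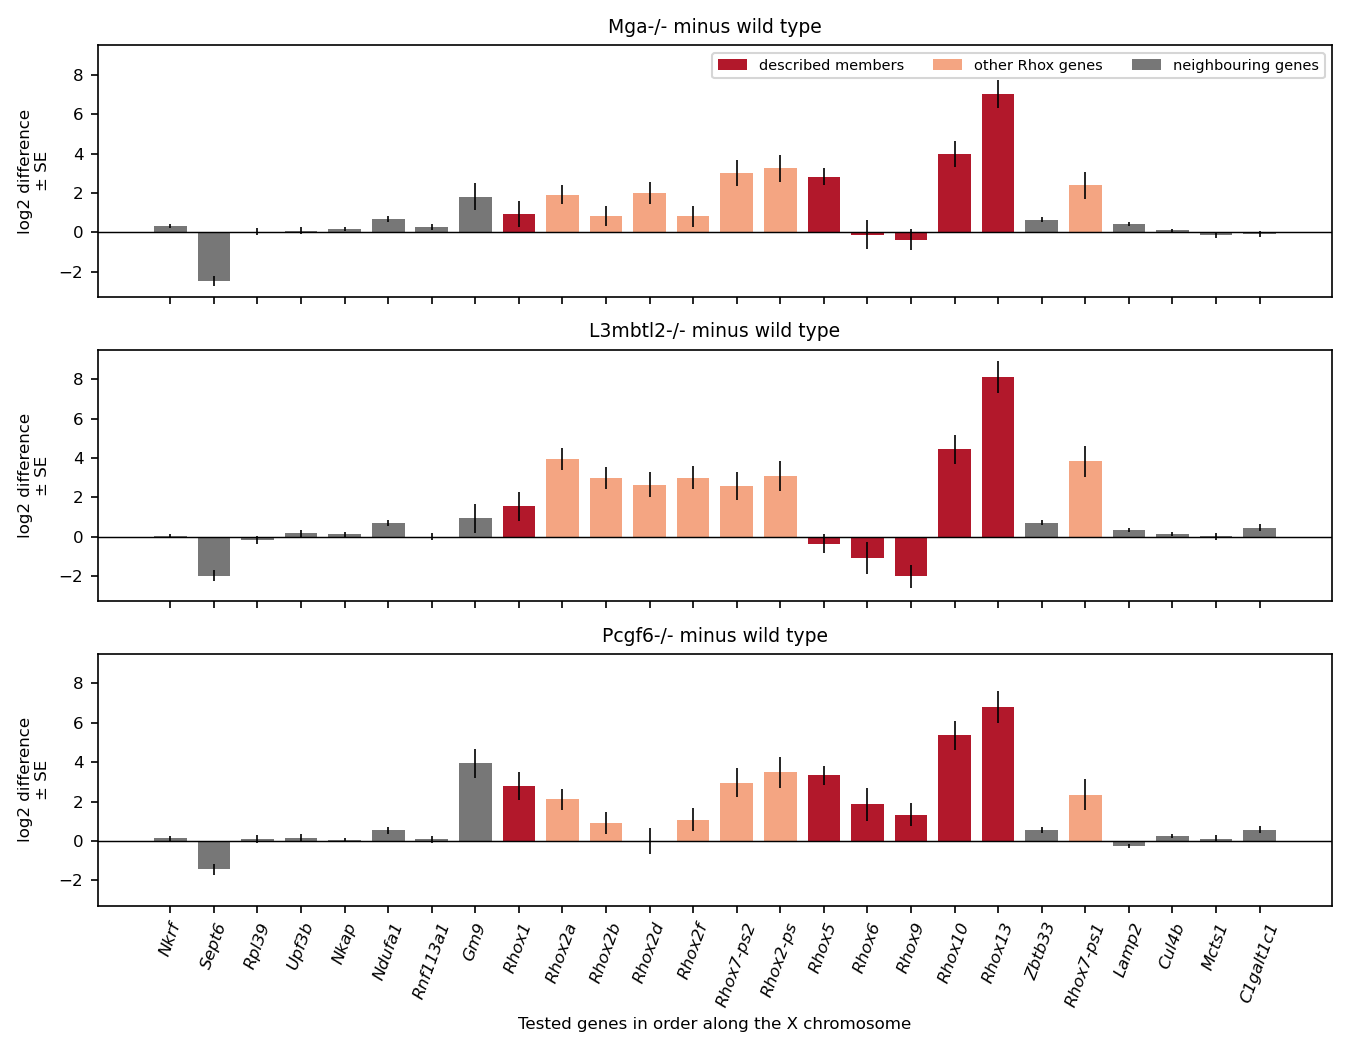
Log2 difference from wild type (limma, with standard error) of every tested gene in and beside the Rhox cluster, in order along the X chromosome, for each knockout. Rhox10 and Rhox13 have the tallest bars in every panel. Rhox5, Rhox6 and Rhox9 are below 0 in L3mbtl2-/- (−0.35, −1.08 and −2.01) and above 0 in Pcgf6-/- (3.33, 1.86 and 1.34). Among the neighbouring genes Sept6 and Gm9 are farthest from 0 in every panel.

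Factors of DNA methylation, chromatin repression and PRC1.6 were counted next, 30 genes that were all tested. They comprised DNA methylation factors, histone methyltransferases and deacetylases, heterochromatin proteins, the corepressor Trim28, the zinc finger gene Zfp42 and PRC1.6 subunits, the targeted genes among them. The list also held the Tet1, Tet2 and Tet3 genes, whose enzymes oxidise methylated DNA, and Kdm1a, a histone demethylase, so a higher level is not more repression for every gene of the list. Against wild type, 6 rose and 5 fell in Mga-/-, 10 rose and 8 fell in L3mbtl2-/- (6 and 8 with median-of-ratios scaling), and 3 rose and 2 fell in Pcgf6-/- cells. The 11, 18 and 5 of 30 called stand beside 39.5%, 40.0% and 10.1% of all tested genes. The counts of genes that fell include the targeted gene itself, L3mbtl2 in L3mbtl2-/- and Pcgf6 in Pcgf6-/- cells, and those calls were fixed by the design. Mga was not called in Mga-/- (adjusted p = 0.0987). The median log2 differences were 0.04, 0.17 and 0.07, against 0.10, 0.13 and 0.04 over all tested genes. Tet2 was among the genes that rose in L3mbtl2-/- cells (2.06 ± 0.53, adjusted p = 0.0147). E2f6, the E2F-family subunit of PRC1.6, rose in all 3 knockouts, by 1.61, 1.33 and 0.82 (adjusted p = 2.09e-05, 0.000116 and 0.00469). Ehmt1, which encodes the H3K9 methyltransferase GLP, fell in all 3, with differences of −0.58, −0.58 and −0.40 (adjusted p = 0.00136, 0.00218 and 0.0335).

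Other factors separated the knockouts. Ehmt2, which encodes the partner enzyme G9a, averaged 23.6 ± 7.78 FPKM in Mga-/- (SD, n = 3), 13.4 ± 0.283 FPKM in L3mbtl2-/- (SD, n = 2), 41.9 ± 0.0123 FPKM in Pcgf6-/- (SD, n = 2) and 43.1 ± 1.76 FPKM in wild type cells (SD, n = 3). It fell in Mga-/- and L3mbtl2-/- (adjusted p = 0.00613 and 0.000659), and the difference in Pcgf6-/- was −0.04 (adjusted p = 0.942). The de novo methyltransferase gene Dnmt3b fell in Mga-/- and L3mbtl2-/-, with differences of −0.77 and −0.95 (adjusted p = 0.000519 and 0.000357), with −0.01 in Pcgf6-/- (adjusted p = 0.976). Hells, which encodes a remodeller needed for DNA methylation, rose by 0.64 and 0.92 in the same 2 knockouts (adjusted p = 0.000878 and 0.000301), with 0.23 in Pcgf6-/- (adjusted p = 0.171). Zfp42, the Rex1 gene, rose by 2.23 in Mga-/- and 1.12 in L3mbtl2-/- (adjusted p = 1.11e-05 and 0.000625), with 0.17 in Pcgf6-/- (adjusted p = 0.495). The Mga-/- count was 17 without its replicate 1, the L3mbtl2-/- count was 10 and 11 without its replicate 1 or 2, and the Pcgf6-/- count lay between 1 and 10 over the left-out libraries. Whether these levels bear on the Rhox levels was not tested.

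Markers of cells in which Rhox genes are normally active, and of cells a culture could hold, were summed per library. The 8 embryonic stem cell markers were all detected in every library, with summed levels of 3089 to 3352 FPKM in Mga-/-, 3255 to 3314 in L3mbtl2-/-, 3472 to 3587 in Pcgf6-/- and 1982 to 2133 in wild type. Dppa5a was the largest part of that sum in every group, with means of 1488 FPKM in Mga-/-, 1568 in L3mbtl2-/-, 2198 in Pcgf6-/- and 1114 in wild type. The 10 primordial germ cell markers summed to 404 to 601 FPKM in Mga-/-, 288 to 290.1 in L3mbtl2-/-, 137 to 144 in Pcgf6-/- and 109 to 112 in wild type. In that list 5, 3 and 3 genes of 10 were higher (22.8%, 23.4% and 5.45% of all tested genes were) and 1, 3 and 1 lower (16.7%, 16.7% and 4.62%). The germ cell RNA-binding protein genes Dazl and Ddx4 were higher in all 3 knockouts. They made up most of the germ cell sum in Mga-/- (237 and 173 FPKM) and L3mbtl2-/- (72.3 and 156 FPKM), against 1.1 and 9.72 FPKM in wild type. Prdm1, a regulator of germ cell specification, was lower in all 3, with differences of −1.75, −2.51 and −1.27 (adjusted p = 0.00155, 0.000507 and 0.0324). In L3mbtl2-/- cells Dppa3 (10.8 FPKM, against 37.5 FPKM in wild type) and Tfap2c (12.8 FPKM, against 31.3 FPKM) were lower as well. The 8 spermatogonia and spermatocyte markers summed to 250.5 to 891 FPKM in Mga-/-, 361 to 373 in L3mbtl2-/-, 40.5 to 44.6 in Pcgf6-/- and 24 to 28.4 in wild type, while Zbtb16, a defining marker of spermatogonia, stayed under 0.5 FPKM in all 10 libraries. A single gene, Tex101, made up most of that sum in L3mbtl2-/- cells, where it averaged 324 FPKM, against 0.644 FPKM in wild type. In the same cells Hormad1 was lower than in wild type (−0.92, adjusted p = 0.00985) and Sycp3 averaged 1.18 FPKM, against 2.18 FPKM in wild type (adjusted p = 0.405). In all, 5, 2 and 1 of the 7 tested genes of the list were higher in the 3 knockouts (22.8%, 23.4% and 5.45% of all tested genes were). Lower were 0, 1 and 0 (16.7%, 16.7% and 4.62%). Among the knockouts both sums were lowest in Pcgf6-/- cells. That group had the highest means of Rhox1, Rhox6, Rhox9 and Rhox10. Its mean of Rhox13 was the lowest among the knockouts, 44.6 FPKM, against 80.6 FPKM in Mga-/- and 110.3 FPKM in L3mbtl2-/- cells. The Pcgf6-/- mean of Rhox5, 295 FPKM, was above that of Mga-/- (247 FPKM) with all libraries. It was below the Mga-/- mean (327 FPKM) without the library labelled Mga-/- replicate 2. The relation of these sums to the Rhox levels was not tested.

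The 11 trophoblast markers, of the lineage in which Rhox6 and Rhox9 are known, summed to 71.6 to 203 FPKM in Mga-/-, 36.6 to 38.2 in L3mbtl2-/-, 85.8 to 86.9 in Pcgf6-/- and 378 to 391 in wild type, and Elf5, Tpbpa and Prl3d1 were under 0.5 FPKM in every library. The keratin genes Krt8 and Krt18 made up most of the wild type sum, at 175 and 153 FPKM, and fell in all 3 knockouts. Of the 7 tested trophoblast genes 2, 6 and 2 were lower (16.7%, 16.7% and 4.62% of all tested genes were). Eomes was higher in Mga-/- (0.91, adjusted p = 0.017), while Tfap2c differed by −0.09 in Mga-/- and −0.03 in Pcgf6-/- cells (adjusted p = 0.716 and 0.95). The 8 listed Sertoli cell markers summed to 13.8 to 35.5, 7.37 to 8.35, 17.5 to 17.7 and 15.3 to 16.6 FPKM in Mga-/-, L3mbtl2-/-, Pcgf6-/- and wild type cells in this order, with Rhox8 and Cldn11 under 0.5 FPKM throughout. The 11 primitive endoderm markers summed to 193 to 433, 343 to 346, 254 to 257 and 238 to 242 FPKM, with Afp under 0.5 FPKM. Sparc made up most of these sums. Gata4 averaged 4.63, 1.92, 2.99 and 0.382 FPKM in the same order, and Gata6 averaged 0.978, 1.04, 2.72 and 0.286 FPKM. Of the 9 tested endoderm genes 3, 4 and 3 were higher (22.8%, 23.4% and 5.45% of all tested genes were) and 0 lower in each knockout. Gata4 and Gata6 passed the filter only through knockout libraries, so nothing is read from these counts. The 8 fibroblast feeder markers summed to 330.3 to 626, 333 to 341, 289 to 289.6 and 267 to 274 FPKM. The 7 macrophage markers summed to 8.5 to 31.6, 372 to 388, 191 to 196 and 141 to 145 FPKM, with Ptprc under 0.5 FPKM. In these bulk samples fewer cells of a type and less RNA per cell cannot be told apart, and the part of such cells in the Rhox levels was not tested.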

How the data were processed

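RNA of 10 embryonic stem cell libraries in 4 groups was analysed. The labels gave each library its group and replicate number. Per the labels' protocols, a NEBNext Ultra kit was used, and it does not mark strand. The authors deposited 1 FPKM value per gene and library. The submitters' processing notes name TopHat2 (2.0.12), Bowtie2 (2.2.3), HTSeq (0.6.0) and GRCm38, without saying how values were scaled. Each table listed 30460 Ensembl genes, of which 30250 took a symbol from GENCODE M21 (GRCm38).

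Low values move in steps of 1 read. For 77.9% of the 28713 genes above 0, FPKM times annotated exon length gave whole reads in all libraries within 0.005 of a read, and for 6356 genes the length was found from the values. Their sum, the depth, was 19370092 to 26726692 reads. PCR reads lack molecular identifiers, so counting intervals cover counting error only.

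The test was limma version 3.58.1 (R 4.3.3, with the variance prior following mean expression) on log2(FPKM + 0.1), for 15731 genes that reached 0.5 FPKM in 2 or more libraries. A single fit took all 10 libraries, with group as its term. Two-sided p-values were adjusted by Benjamini-Hochberg over the 15731 genes, with a threshold of 0.05. The fit was also run on simulated data with the same spread in all groups. That run does not cover the uneven spread of these libraries, and nothing is read from it. Same-numbered libraries of different groups did not deviate together, so replicate numbers were not taken to pair samples. The alternatives were a pseudocount of 1, no filter, median-of-ratios scaling, limma-voom on recovered reads, fits of only 2 groups, a replicate block, and each library left out. The closing section gives their effect.

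The members and all gene lists were chosen with earlier results of these data known. The genes named were the 8 members, the other Rhox genes past the filter, the targeted genes, up to 4 genes of each list per comparison by smallest p, and for each member the 5 named non-Rhox genes with the highest Pearson correlation over the libraries. A few list genes beyond these, and summed copies, were named after their values were seen. Shared sequence was counted as 50-base runs of GENCODE M21 transcripts on both strands. Promoter windows are from RefSeq (GRCm38.p6).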

Additional observations from a re-analysis of the deposited data

How the results depend on the processing

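The alternatives kept the direction of most member differences, and the exceptions follow. The Mga-/- minus wild type difference of Rhox6 was 0.03 with a pseudocount of 1. With 1 library left out it ranged from −0.78 to 0.96 for Rhox6 and from −0.80 to 0.37 for Rhox9. Mga-/- minus L3mbtl2-/- ranged from −1.26 to 0.25 for Rhox1 and from −0.98 to 0.42 for Rhox10, and Mga-/- minus Pcgf6-/- from −0.85 to 0.15 for Rhox5. In these 5 ranges the highest value is the one without the library labelled Mga-/- replicate 2. For Rhox13 Mga-/- minus Pcgf6-/- was −0.22 with a replicate block, and it ranged from −0.55 without Mga-/- replicate 3 to 1.24 without replicate 2. Genes called in Pcgf6-/- against wild type numbered 992 with a replicate block, which called 2 repression factors. Replicate numbers showed no pairing: deviations of same-numbered libraries correlated at −0.02 to 0.035.

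Fits of only the 2 groups compared called 3994 (Mga-/-), 10591 (L3mbtl2-/-) and 6878 (Pcgf6-/-) genes against wild type, and 593 (Mga-/- against L3mbtl2-/-), 198 (Mga-/- against Pcgf6-/-) and 9667 (L3mbtl2-/- against Pcgf6-/-) between knockouts. In those fits other Rhox genes called were 3 in Mga-/- and 6 in Pcgf6-/- (5 and 3 in the fit of all groups; all 7 tested passed the filter with the help of knockout libraries, so nothing is read from these counts), neighbours 3, 8 and 7 in the 3 knockouts, repression factors 18 in Pcgf6-/-, and members between knockouts 0 (Mga-/- against L3mbtl2-/-) and 6 (L3mbtl2-/- against Pcgf6-/-). With a pseudocount of 1 the other Rhox genes called were 2 in Mga-/- and 1 in Pcgf6-/-, and 1 member passed between Mga-/- and Pcgf6-/-. With limma-voom 1 other Rhox gene was called in Pcgf6-/- and 2 members passed between Mga-/- and Pcgf6-/-. The cause of these shifts was not tested.

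With 1 library left out, genes called ranged from 4196 to 8674 (Mga-/-), 2942 to 8525 (L3mbtl2-/-) and 157 to 3960 (Pcgf6-/-) against wild type, and from 1192 to 5886, 815 to 7003 and 1694 to 7357 between Mga-/- and L3mbtl2-/-, Mga-/- and Pcgf6-/-, and L3mbtl2-/- and Pcgf6-/-. Other Rhox genes called ranged from 2 to 5, 3 to 7 and 0 to 4 in the 3 knockouts, neighbours from 3 to 5, 2 to 5 and 0 to 5, and repression factors from 11 to 17, 10 to 24 and 1 to 10. Members passing between knockouts ranged from 1 to 3, 0 to 3 and 2 to 5. Where an arm kept 1 library, it was assumed to vary like the other groups.

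Median-of-ratios scaling moved the split of calls against wild type to 2912 higher and 3128 lower in Mga-/- (3588 and 2622 as deposited), 2966 and 3237 in L3mbtl2-/- (3675 and 2622) and 757 and 895 in Pcgf6-/- (857 and 727). No member changed direction with it.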

Other observations

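Some Rhox genes below the filter were read in few libraries, and they were noted after their values were seen. The pseudogene Rhox11-ps2 had 4, 1 and 34 reads in the libraries labelled Mga-/- and was listed at 0 in the other 7 libraries, L3mbtl2-/-, Pcgf6-/- and wild type alike. Rhox8, known from Sertoli cells, had 2 reads in Mga-/- replicate 1 and none elsewhere. The 3 listed Rhox3 copies together had 3 reads in Mga-/- replicate 1, 2 reads in L3mbtl2-/- replicate 1 and none elsewhere. No test was made on these counts.

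The library labelled Mga-/- replicate 2, with as much Mga RNA as wild type cells, did not have wild type Rhox levels. Relative to the wild type mean it held 43.2 times the level of Rhox13, 9.36 times that of Rhox10 and 2.92 times that of Rhox5. It held 0.522 times the wild type level of Rhox1, 0.236 times that of Rhox9 and 0.193 times that of Rhox6. As a single library it has no replicate, and these ratios were not tested.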
